A study of Mus musculus with 6 samples.

Results

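The genes described here are 32 listed members of antigen presentation, of the macrophage and leukocyte repertoire and of the interferon response, out of 8129 genes with at least 1 read in brown fat. They were taken by name: 3 complement C1q subunits, 4 genes of MHC class II, 4 of MHC class I, 7 macrophage and myeloid genes, 5 leukocyte genes, 6 interferon-inducible genes and 3 of the Ly6 family. Reads were found for 30 of them, and 13 had enough to be tested. The 2 without a read in any library were Cd68, a lysosomal protein of macrophages, and Isg15, a ubiquitin-like protein induced by interferon.

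The mRNA came from interscapular brown fat, the heat-producing depot between the shoulder blades, of wild type male C57BL/6N mice aged 20 weeks. One group of 3 mice was kept at 4 °C for 24 h, each animal alone in its cage, and is compared with 3 control mice. The labels give the cold exposure in the text of every sample, controls included, so the groups follow the titles and the treatment tag; for controls only the general husbandry at 22 to 24 °C is known. The sources used here do not say whether control mice were also housed singly, so cold and single housing cannot be told apart. Capped, full-length cDNA was amplified over 27 PCR cycles and sequenced on nanopores, a protocol meant to read whole cDNAs and not fragments. The counts do not show how much of a transcript each read covered. PCR copies of a molecule were counted apart.

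Fat tissue holds adipocytes among capillaries, fibroblasts and resident immune cells. MHC class I molecules, built from a heavy chain and beta-2-microglobulin, show peptides of the cell's own proteins at the surface of nearly all nucleated cells. MHC class II molecules show peptides from the endosome and are made mainly by macrophages, dendritic cells and B cells. Interferons raise both classes together with a set of antiviral genes, and C1q, made by tissue macrophages, starts the classical complement pathway.

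Libraries held 2922939 to 2982630 reads in the cold group and 1014812 to 1849351 in the control group, so every cold library was deeper than every control, and raw counts cannot tell depth from group. Levels are given in CPM, read counts scaled to a common library size with TMM factors, and changes as log2 cold minus control ± SE. The level of 3 reads, used as a floor for detection, was 0.988 to 1.01 CPM in cold libraries and 1.62 to 3.08 CPM in control libraries, and covers counting error only. Of the markers of the labelled tissue all 10 had reads, with Ucp1, the uncoupling protein of brown fat, at 4066 to 4150 CPM in cold and 4131 to 4775 CPM in control libraries. Of these 10 genes 8 were tested: Elovl3 (3.69) and Kcnk3 (1.35) were called higher by edgeR, and Cox8b (-0.98, adjusted p = 0.0127) and Adipoq (-0.88, adjusted p = 0.0022) lower, changes of about the size of those in MHC genes below, and their part in the results was not tested. A set of 9 skeletal muscle genes set cold replicates 11 and 15 apart: the sum was 105, 1163 and 5826 CPM in cold replicates 4, 11 and 15, against 110, 327 and 485 CPM in the controls 2, 9 and 14. Calls of members and of pathway genes are therefore also given without these libraries where that ends them.

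Markers that define macrophages were at or near 0. Of 15 such genes fixed as a list, 13 had no read in any library, among them Adgre1, Csf1r, Mrc1, Cd163, Mpeg1 and Aif1. The other 2, Pf4 and F13a1, held 6 reads in the cold group and 3 in the control group. Of 12 genes shared by leukocytes 11 had no read, Ptprc, the common leukocyte antigen CD45, included. All 79 marker genes of immune cell types together held 64 reads in cold and 31 in control libraries, most of them on Ly6c2. A marker at 0 does not show that a cell type was absent from the tissue: C1qa, itself a macrophage gene, had 665 reads in cold and 270 in control libraries, and the fibroblast genes Col1a1, Col3a1 and Pdgfra were at 0 while Dcn and Dpt, of the same cells, had reads. The values below are levels of genes, not of a cell type. In whole tissue, fewer cells of a type and less RNA per cell cannot be told apart.

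Among the 13 tested members, Ifi27l2a was 4.87-fold higher in the cold, while B2m, H2-D1 and H2-Aa, which encode parts of MHC class I and class II, were lower by 0.97, 0.80 and 1.19 on the log2 scale. The edgeR test across all genes called 1 member higher and 3 lower and left 9 uncalled. Over all 2093 tested genes 33.2% were called, 18.1% higher and 15.1% lower, so the 4 calls of 13 are a share near that of genes at large. At an unadjusted p under 0.05 stood 7 members, where all genes gave 44%. The groups did not overlap in 7 members, 5 with every cold library below every control and 2 with every one above, against 47.8% of all tested genes. The median log2 change was -0.26 over the tested members and 0.04 over all tested genes.

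**Figure D1:**
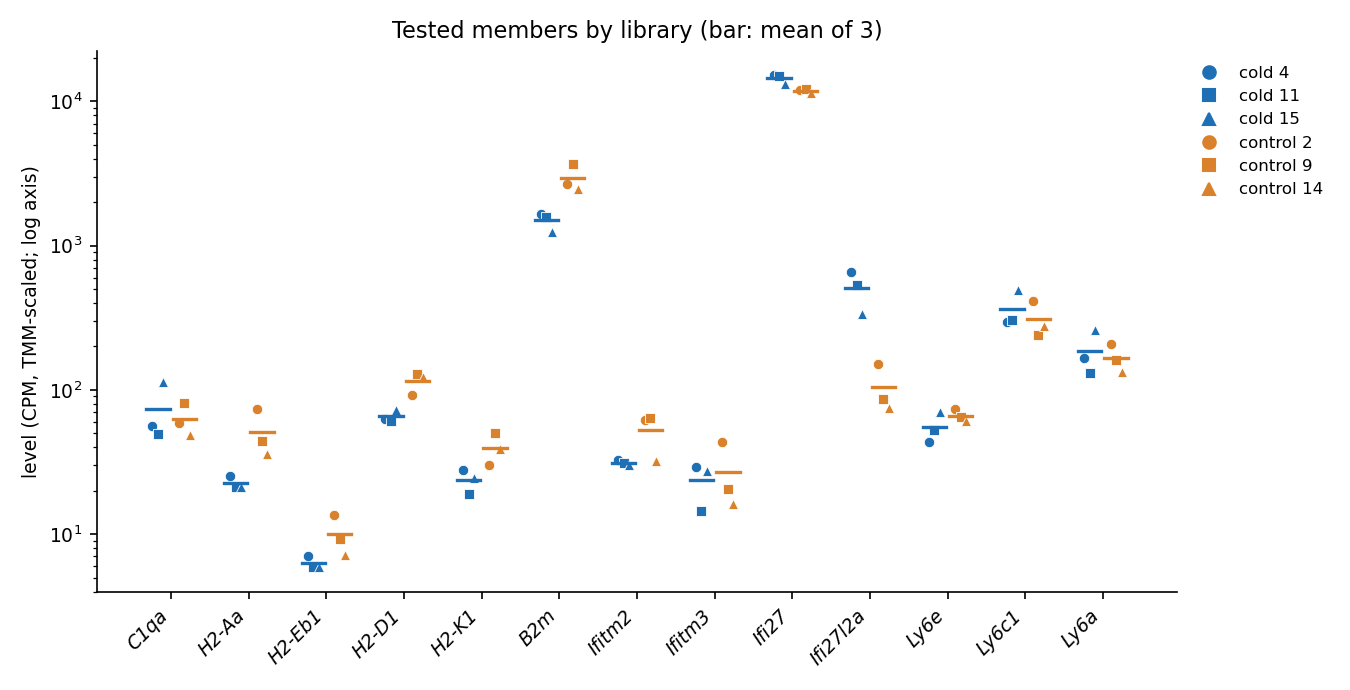
Level in CPM (log axis) of the 13 tested members in each library, cold libraries left and control libraries right of each gene; points are libraries and bars the means of 3. Ifi27l2a and Ifi27 lie higher in all 3 cold libraries than in any control, and H2-Aa, H2-Eb1, H2-D1, H2-K1 and B2m lie lower in all 3.

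**Figure D2:**
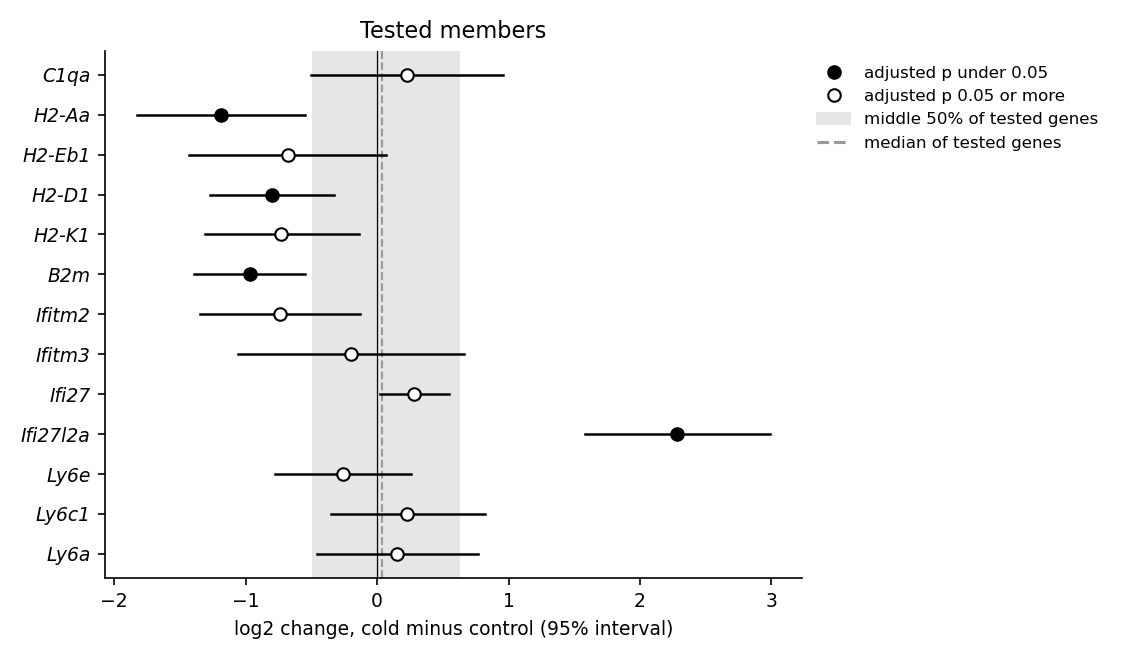
Log2 change, cold minus control, of each tested member with its 95% interval; filled points had an adjusted p under 0.05. The grey band spans the middle 50% of all 2093 tested genes, from -0.49 to 0.62, and the dashed line their median of 0.04; only Ifi27l2a, H2-Aa, B2m and H2-D1 are filled.

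The promoters of the MHC genes are shown first, because H2-Aa, H2-D1 and B2m were called lower; H2-K1 and H2-Eb1, which were not called, stand beside them as chains of the same 2 classes. Windows run from 250 bases before to 50 after the annotated RefSeq start on GRCm38.p6, 5′ to 3′ on the gene's own strand, and 22 of the 32 members had one. Capitals mark motif matches: the Y box CTGATTGG or its other strand CCAATCAG, the kappa B site of the class I enhancer A, GGGATTCCC or GGGAATCCC, and the interferon-stimulated response element GAAANNGAA or TTCNNTTTC, where N is any base.
H2-Aa, chr17:34287774-34288073, minus strand: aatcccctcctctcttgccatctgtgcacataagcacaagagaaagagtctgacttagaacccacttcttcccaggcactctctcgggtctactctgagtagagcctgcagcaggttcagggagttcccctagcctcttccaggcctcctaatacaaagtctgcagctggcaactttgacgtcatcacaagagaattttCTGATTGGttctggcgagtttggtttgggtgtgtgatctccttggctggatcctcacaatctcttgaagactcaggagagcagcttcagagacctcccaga
H2-Eb1, chr17:34305617-34305916, plus strand: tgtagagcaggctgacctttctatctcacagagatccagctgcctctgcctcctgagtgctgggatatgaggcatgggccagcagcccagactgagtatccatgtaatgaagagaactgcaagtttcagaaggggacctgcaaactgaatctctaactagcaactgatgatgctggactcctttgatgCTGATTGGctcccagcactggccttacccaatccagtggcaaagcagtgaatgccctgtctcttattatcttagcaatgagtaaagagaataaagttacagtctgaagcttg
H2-D1, chr17:35262844-35263143, plus strand: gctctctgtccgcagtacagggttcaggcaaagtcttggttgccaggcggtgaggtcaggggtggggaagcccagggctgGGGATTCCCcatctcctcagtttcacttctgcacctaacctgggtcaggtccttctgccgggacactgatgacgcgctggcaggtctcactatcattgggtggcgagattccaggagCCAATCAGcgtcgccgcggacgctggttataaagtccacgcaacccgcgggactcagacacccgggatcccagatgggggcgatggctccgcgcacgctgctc
H2-K1, chr17:34000284-34000583, minus strand: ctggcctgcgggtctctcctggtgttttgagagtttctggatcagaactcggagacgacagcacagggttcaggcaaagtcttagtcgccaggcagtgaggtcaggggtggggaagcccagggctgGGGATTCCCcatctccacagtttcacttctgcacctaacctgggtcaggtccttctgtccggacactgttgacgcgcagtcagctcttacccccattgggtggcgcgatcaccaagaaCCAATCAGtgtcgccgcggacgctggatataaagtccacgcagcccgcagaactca
B2m, chr2:122147437-122147736, plus strand: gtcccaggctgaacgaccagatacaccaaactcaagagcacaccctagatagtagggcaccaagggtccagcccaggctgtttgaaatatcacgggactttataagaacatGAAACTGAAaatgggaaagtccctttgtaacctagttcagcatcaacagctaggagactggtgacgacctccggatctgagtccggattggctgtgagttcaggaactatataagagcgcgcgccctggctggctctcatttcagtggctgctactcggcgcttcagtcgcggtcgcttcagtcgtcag

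The Y box began 51, 62 and 53 bases before the start in H2-Aa, H2-Eb1 and H2-D1 and 6 bases before it in H2-K1. The kappa B site began 170 and 124 bases before the start in H2-D1 and H2-K1, and the response element of B2m 139 bases before it. Of all 32851 windows of 300 bases, 4.1% held the Y box, 0.353% (116 windows) the kappa B site and 8.56% the response element. Of the 22 member windows 4 held the Y box, 2 the kappa B site and 6 the response element, in B2m, Ctss, Ifitm2, Ifitm3, Bst2 and Isg15. A gamma interferon activation site, TTCNNNGAA, stood in those of Ifitm3 and Bst2 and in 8.3% of all windows; in both genes it overlaps a response element. Response elements overlap each other in Bst2 and in Isg15. The transcript holding the H2-D1 reads starts 364 bases upstream of the annotated start of the window. The whole H2-D1 window, motifs included, therefore lies downstream of the start of that transcript. The transcript with most H2-K1 reads starts 50 bases downstream of the annotated start, so both H2-K1 motifs lie 50 bases further from that start than given above. These are matches of letters and not measured binding sites. The H2-D1 and H2-K1 windows share the stretch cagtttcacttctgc downstream of the kappa B site. This stretch holds the repeats of the response element in the other order, which the search did not count. A window without a match is therefore not shown to lack a response element.

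MHC class I stood lower in the cold in its shared light chain and in a heavy chain. B2m (chr2:122147686-122153083), beta-2-microglobulin, was at 1667, 1586 and 1244 CPM in cold replicates 4, 11 and 15, against 2669, 3689 and 2474 CPM in control replicates 2, 9 and 14. The highest cold library lay under the lowest control library, and means were 1499 ± 225 CPM in cold and 2944 ± 652 CPM in control (SD, n = 3 each). B2m fell by 0.97 ± 0.19 on the log2 scale in the edgeR test (adjusted p = 0.00285, 95% interval -1.39 to -0.55).

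H2-D1 (chr17:35262730-35267499), a classical class I heavy chain, had 62.9, 61.0 and 72.8 CPM in the cold libraries, against 92.7, 129 and 122 CPM in control libraries. All 3 cold libraries were lower, and the change was -0.80 ± 0.21 in the edgeR test (adjusted p = 0.0150). That call was lost without cold replicate 4 (-0.79, edgeR adjusted p = 0.0556), without cold replicate 11 (-0.74, edgeR adjusted p = 0.0666) with no count filter (-0.67, edgeR adjusted p = 0.106) and without cold replicates 11 and 15 (-0.81, edgeR adjusted p = 0.211), in a range of 0.00215 to 0.211 over 16 alternatives. H2-K1 (chr17:33996017-34000347), the other classical heavy chain, had 27.8, 19.1 and 24.3 CPM in cold and 30.2, 50.2 and 38.9 CPM in control libraries. Its groups did not overlap either, but the change of -0.73 ± 0.27 missed the threshold (edgeR adjusted p = 0.0563, 95% interval -1.31 to -0.14); DESeq2 called it lower (-0.77, adjusted p = 0.0434, range 0.0249 to 0.571 over 15 alternatives).

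Reads of H2-K1 sat mostly on H2-K1-203, which the annotation calls a retained intron: it held 89.0 ± 6.85% of the gene's reads in cold and 91.2 ± 5.61% in control libraries (SD, n = 3 each). By itself this transcript was called lower (-0.76 ± 0.27, edgeR adjusted p = 0.0487), among 4 member transcripts lower and 1 higher of 25 tested, where 32.7% of all transcripts were called. The other 4 were the single transcripts with reads of B2m, H2-D1, H2-Aa and Ifi27l2a. The class I heavy chains resemble each other: H2-D1 and H2-K1 transcripts align at 88.2% identity over 72.0% of H2-D1, and both align with H2-Q10, at 85.9% and 86.7%. How a read that fits several of them was assigned is not given, so single heavy chains are less certain than B2m. H2-Q10, looked up after its values were seen, had 18.1, 26.1 and 18.4 CPM in cold and 23.2, 66.5 and 39.5 CPM in control libraries (-1.01 ± 0.36, edgeR adjusted p = 0.0489, range 0.00538 to 0.18 over 16 alternatives). That call was lost without any 1 library other than control replicate 2. It was also lost with library totals alone, a count filter at 30 or flow cell 2 alone. It held with DESeq2, DESeq2 size factors in edgeR, no count filter, equal depth, flow cell 1 alone and protein-coding transcripts alone. Tapbp, or tapasin, which loads peptide onto class I, had 5, 6 and 3 reads in cold and 6, 5 and 6 reads in control libraries, or 0.983 to 1.98 CPM against 3.23 to 5.12 CPM, and was too low to be tested.

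MHC class II stood lower as well, with H2-Aa as its called gene. H2-Aa (chr17:34282744-34287823), the alpha chain of the I-A molecule, had 25.1, 21.1 and 21.3 CPM in cold replicates 4, 11 and 15, and 73.3, 44.0 and 35.9 CPM in control replicates 2, 9 and 14. The cold libraries were close together and all under the controls, of which replicate 2 was the highest. Means were 22.5 ± 2.24 CPM in cold and 51.1 ± 19.7 CPM in control (SD, n = 3 each), a log2 change of -1.19 ± 0.29 (edgeR adjusted p = 0.00953, 95% interval -1.83 to -0.55).

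The other class II genes were near the limit of these libraries. H2-Eb1, which encodes the beta chain of I-E, had 7.02, 5.94 and 5.90 CPM in cold and 13.5, 9.21 and 7.18 CPM in control libraries. The groups did not overlap, and the change of -0.68 ± 0.34 was not called (edgeR adjusted p = 0.150). H2-Ea-ps, which resembles H2-Aa, had no read, and whether an I-E molecule was made was not tested. Cd74, the invariant chain that guides class II to the endosome, had 0, 5 and 5 reads in cold and 20, 4 and 7 reads in control libraries. On the CPM scale these were 0, 1.65 and 1.64 in cold against 10.8, 4.09 and 4.19 in control libraries, again without overlap. The gene fell short of the count filter; with no filter, or without control replicate 9 or 14, edgeR called it lower. H2-Ab1, the beta chain of I-A, had 1, 1 and 2 reads in cold and 7, 5 and 1 reads in control libraries, with overlap.

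Taking both classes, 5 of 5 tested members lay lower in every cold library than in any control, where 21.8% of all tested genes did so. The test called 3 of these 5 lower, against 15.1% of all tested genes, and log2 changes ran from -1.19 to -0.68. The members were chosen with earlier results of these data known, and H2-D1 and H2-K1 may share reads. The shares are therefore descriptive, and enrichment was not tested. With the untested Cd74 and Tapbp, 7 of the 8 members lay lower in every cold library than in any control on the CPM scale. Raw reads of Cd74 and Tapbp overlapped between the groups, and control libraries were the shallower ones. The share of 21.8% does not cover genes with so few reads, so the 7 of 8 cannot be set against it. Among the 5 tested members, H2-K1 rested mostly on its retained intron, H2-K1-203. It was not tested over protein-coding transcripts alone. The summed class II level, most of it H2-Aa, was 32.4, 29.0 and 29.5 CPM in cold and 101, 62.4 and 47.8 CPM in control libraries. For class I, nearly all of it B2m, the sum was 1759, 1668 and 1342 CPM in cold and 2795, 3873 and 2639 CPM in control libraries. With cold replicates 11 and 15 both left out, an alternative chosen after seeing the data that leaves 1 cold library assumed to vary like the controls, B2m stood at -0.77 (edgeR adjusted p = 0.128, range 7.2e-05 to 0.128 over 16 alternatives) and H2-Aa at -0.99 (edgeR adjusted p = 0.183, range 0.00091 to 0.183). The part of the muscle genes in these changes was not tested beyond that.

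Among the interferon-inducible members, a pair of neighbouring relatives on chromosome 12 carried most of the reads, and the called one was Ifi27l2a. Ifi27l2a (chr12:103442167-103443680, minus strand), a small hydrophobic protein induced by interferon, had 660, 535 and 337 CPM in cold replicates 4, 11 and 15, and 152, 86.0 and 75.3 CPM in control replicates 2, 9 and 14. Every cold library was more than double the highest control. The cold libraries stood in the reverse order of their skeletal muscle sums. Among the other tested members the same held for B2m, Ifi27, Ifitm2 and H2-Eb1 and not for the rest, and the part of muscle was not tested. Means were 511 ± 163 CPM in cold and 104 ± 41.5 CPM in control (SD, n = 3 each), a rise of 2.28 ± 0.32 on the log2 scale (edgeR adjusted p = 0.000447, 95% interval 1.58 to 2.99). The gene was called higher under all 16 alternatives tried, at 2.03 to 2.69.

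Ifi27 (chr12:103434211-103440239, plus strand), its relative with a role at mitochondria and the nuclear envelope, had 15116, 14995 and 13145 CPM in cold and 11920, 12138 and 11494 CPM in control libraries. The cold libraries were all higher, by a modest 0.28 ± 0.12 that was not called (edgeR adjusted p = 0.0957, 95% interval 0.02 to 0.55). Scaled by library totals alone it was called (0.35, edgeR adjusted p = 0.0467, range 0.0467 to 0.371 over 16 alternatives). The most similar stretch of the 2 relatives aligns at 69.8% identity over 53.6% of Ifi27l2a, far from the 95% identity taken here as a near-identical copy.

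Of the Ifi27 transcripts, Ifi27-205 held 76.3 ± 2.50% of the gene's reads in cold and 77.6 ± 2.27% in control libraries, and Ifi27-201 held 22.0 ± 2.19% in cold and 20.5 ± 1.53% in control (SD, n = 3 each). Ifi27-205 had a log2 change of 0.26 ± 0.14 and Ifi27-201 of 0.38 ± 0.14, and neither was called by edgeR (adjusted p = 0.166 and 0.0617). Transcript usage could be tested in 4 members, Ifi27, Ly6a, Ly6c1 and Ly6e, with diffSpliceDGE of edgeR. It called 0 of them, with 0 at an unadjusted p under 0.05, where 1.67% of 539 genes were called and 4.82% had such a p.

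**Figure D3:**
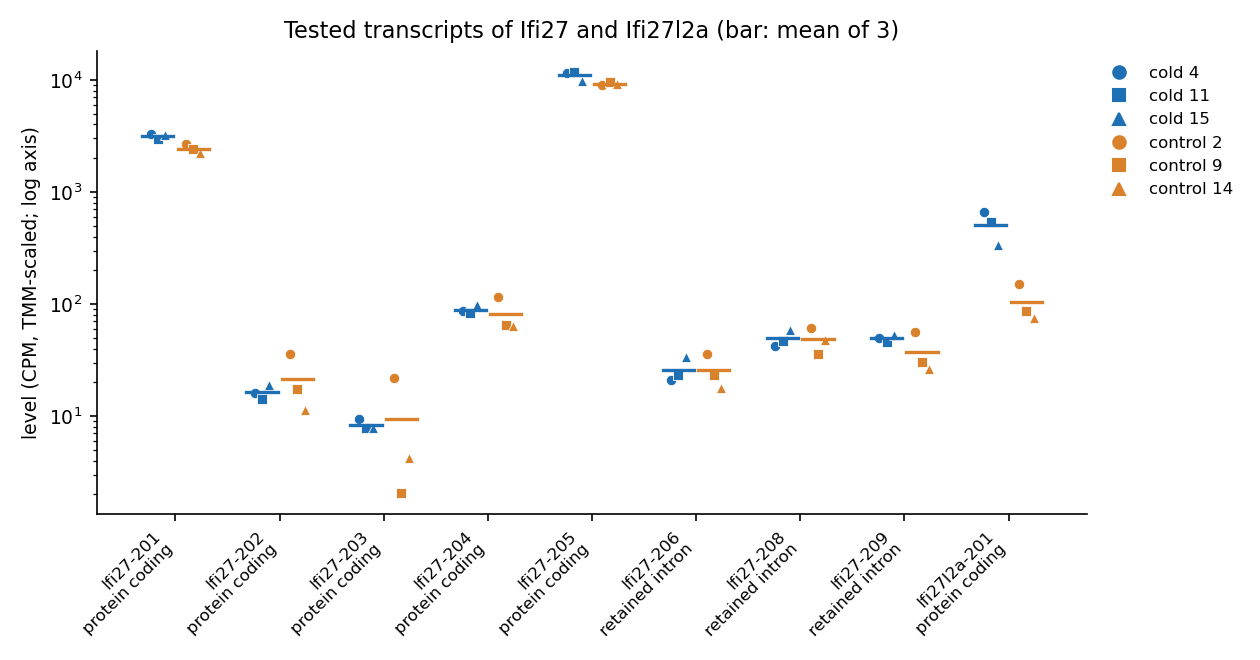
Level in CPM (log axis) of the tested transcripts of Ifi27 and of the single transcript of Ifi27l2a, cold libraries left and control libraries right; points are libraries and bars the means of 3. Ifi27-201 and Ifi27-205 hold nearly all Ifi27 reads in both groups, and Ifi27l2a-201 is the one with a called difference.

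The interferon-induced membrane proteins that block virus entry were not called. Ifitm2 had 32.4, 31.0 and 30.2 CPM in cold and 61.5, 63.5 and 32.3 CPM in control libraries, where control replicate 14 was near the cold level and overlapped it. Its change of -0.74 ± 0.28 missed the threshold in edgeR (adjusted p = 0.0614) and passed in DESeq2 (-0.79, adjusted p = 0.0352, range 0.0103 to 0.412 over 16 alternatives). Ifitm3 had 29.1, 14.5 and 27.5 CPM in cold and 43.7, 20.5 and 16.1 CPM in control libraries, with wide overlap (-0.20 ± 0.39, edgeR adjusted p = 0.724, 95% interval -1.06 to 0.66). Bst2, or tetherin, which holds budding viruses at the cell surface, had 12, 6 and 3 reads in cold and 16, 7 and 5 reads in control libraries and was not tested; without cold replicate 4 (-2.05, edgeR adjusted p = 0.0462) or control replicate 14 (-1.80, edgeR adjusted p = 0.0429) it passed the filter and was called lower.

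The Ly6 genes, which encode small lipid-anchored surface proteins, overlapped between the groups. Ly6c1 had 293, 307 and 491 CPM in cold and 411, 241 and 275 CPM in control libraries (0.23 ± 0.27, edgeR adjusted p = 0.527, 95% interval -0.35 to 0.82). Ly6a, also called Sca-1, had 166, 130 and 259 CPM in cold and 208, 160 and 132 CPM in control libraries (0.15 ± 0.28, edgeR adjusted p = 0.707). In both genes cold replicate 15 was the highest library of all 6, and without it the changes were -0.04 for Ly6c1 and -0.16 for Ly6a. That library also had the highest skeletal muscle sum, 5826 CPM, whose part in these levels was not tested.

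Ly6e stood at 43.5, 52.4 and 69.8 CPM in cold and 73.9, 64.5 and 60.4 CPM in control libraries (-0.26 ± 0.24, edgeR adjusted p = 0.424), spread almost evenly over 4 tested transcripts at 22.2 to 25.6% of its reads in cold and 22.8 to 25.7% in control. Ly6c1 has a near-identical copy in Ly6c2, a monocyte gene, at 97.6% identity over 97.4% of its length. Ly6c2 held 41 reads in cold and 26 in control libraries, so a small part of either gene's reads may belong to the other. Ly6c1 and Ly6a are abundant in capillary endothelium. Of 17 endothelial markers 8 were tested, with 2 called higher (Gpihbp1 and Eng) and 1 lower (Ramp2), a share near the 33.2% of all genes, and a median log2 change of -0.07. Their summed level was 1849 to 2123 CPM in cold and 1513 to 1853 CPM in control libraries.

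Among complement genes C1qa was the C1q subunit with reads to test. It had 55.8, 49.5 and 114 CPM in cold and 58.8, 80.9 and 49.0 CPM in control libraries. Cold replicate 15 stood above the rest, the groups overlapped, and the change was 0.23 ± 0.33 (edgeR adjusted p = 0.628, 95% interval -0.50 to 0.96) or -0.23 without that library. The 3 chains join in equal numbers in the protein, but their mRNA counts were unequal in every library. Per kilobase of annotated transcript, C1qa had 70.3 ± 34.2 CPM in cold and 60.5 ± 15.7 CPM in control (SD, n = 3 each). C1qb had 2.53 ± 0.906 CPM per kilobase in cold and 2.55 ± 0.711 in control, and C1qc had 1.19 ± 0.835 in cold and 0.866 ± 0.851 in control. As reads, C1qb had 5, 9 and 11 in cold and 5, 2 and 6 in control libraries, and C1qc had 5, 1 and 7 in cold and 2, 2 and 0 in control libraries.

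The macrophage and myeloid members could not be tested. All 7 together, Cd68 at 0 included, held 15 reads in cold and 6 reads in control libraries. Lyz2, the lysozyme of myeloid cells, had 4 reads in cold and 1 in control libraries, and Tyrobp, the adaptor DAP12, had 4 in each group. Fcer1g, an adaptor of Fc receptors, had 2 in cold and 0 in control libraries; Ctss, the endosomal protease that trims the invariant chain, had 1 in cold and 0 in control libraries. Lgals3, galectin-3, had 2 reads in cold and 0 in control libraries, and Cd14, the coreceptor for bacterial lipopolysaccharide, had 2 in cold and 1 in control libraries. With 3 or fewer reads per library, no difference in these genes was detectable at this depth.

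The 5 leukocyte genes held 41 reads in cold and 32 in control libraries. Arpc1b, a subunit of the actin-branching Arp2/3 complex that many cells make, had 5, 9 and 4 reads in cold and 6, 8 and 4 in control libraries; its exons overlap those of Pdap1 on the opposite strand. Cyba, the membrane subunit of the NADPH oxidase, had 6, 1 and 11 reads in cold and 5, 3 and 1 in control libraries. Cd52, a small surface glycoprotein of lymphocytes, had 2 reads in cold and 2 in control libraries. Laptm5, a lysosomal protein of leukocytes, had 3 in cold and 2 in control libraries, and Coro1a, an actin-binding protein, had 0 in cold and 1 in control libraries. None of these reached the count filter.

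**Figure D4:**
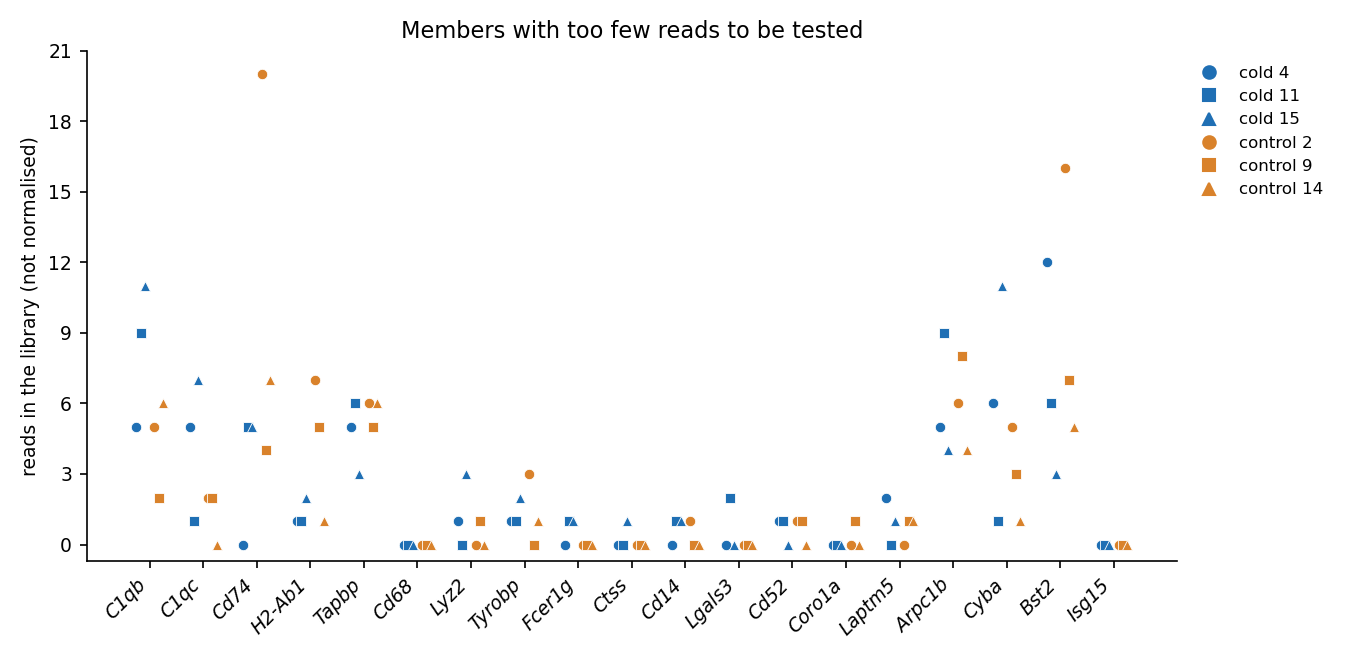
Reads per library, not normalised, of the 19 members with too few reads to be tested, cold libraries left and control libraries right of each gene; control libraries were the shallower ones. No library exceeds 20 reads for any gene, and Cd68 and Isg15 are at 0 throughout.

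Other genes of the same pathways were followed from lists of 104 genes, of which 54 had no read and 16 were tested, with 3 called higher and 3 lower. These 6 of 16 are a share near the 33.2% called over all tested genes. Without cold replicates 11 and 15 edgeR still called Calr (1.56, adjusted p = 0.00813). It did not call Psme1 (-1.38, adjusted p = 0.05), Psme2 (-1.20, adjusted p = 0.112), Ifi30 (0.82, adjusted p = 0.227) or Lgals3bp (-0.79, adjusted p = 0.336), and Lgmn was not tested there. In the class I loading list 5 of 19 were tested. Psme1 and Psme2, the subunits of the interferon-inducible PA28 activator of the proteasome, were both lower. Psme1 averaged 18.2 ± 4.07 CPM in cold and 53.8 ± 14.1 CPM in control libraries (SD, n = 3 each; -1.57 ± 0.28, edgeR adjusted p = 0.00161). Psme2 had 16.4, 15.5 and 12.5 CPM in cold and 55.5, 29.7 and 29.9 CPM in control libraries (-1.39 ± 0.30, edgeR adjusted p = 0.00487). Neither overlapped between groups. Calr, the chaperone calreticulin that also serves general protein folding, was higher, at 90.2 ± 10.6 CPM in cold and 36.2 ± 12.1 CPM in control (SD, n = 3 each; 1.34 ± 0.27, edgeR adjusted p = 0.00369). The immunoproteasome subunit gene Psmb10 was not called (-0.07 ± 0.38), nor was the lipid-presenting Cd1d1 (0.30 ± 0.28).

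In the class II and endosome list 6 of 16 were tested and 2 called, both higher. Ifi30, the thiol reductase GILT that unfolds antigens in the endosome, had 35.8, 50.5 and 35.7 CPM in cold and 14.6, 22.5 and 26.3 CPM in control libraries (0.95 ± 0.28, edgeR adjusted p = 0.0249, range 0.00587 to 0.227 over 15 alternatives); the call was also lost without cold replicate 11 or control replicate 2 or 9. Lgmn, the asparaginyl endopeptidase legumain, averaged 6.06 ± 0.629 CPM in cold and 1.44 ± 1.11 CPM in control (SD, n = 3 each; 1.94 ± 0.51, edgeR adjusted p = 0.0139), with control values near or under their floors; without control replicate 9 or 14 it was not called (1.78 and 1.49). The cathepsins Ctsl, Ctsb and Ctsd and the cathepsin inhibitor Cst3 were not called, at 0.28 ± 0.17, -0.24 ± 0.17, 0.37 ± 0.18 and -0.20 ± 0.15. H2-DMa and H2-DMb1, which load class II, and Ciita, its master regulator, had no read. Counted over protein-coding transcripts alone, Ifi30 did not enter the test, so its change is not shown for those transcripts. The changes of Ifi30 and Lgmn had the opposite sign to that of H2-Aa, and the difference between these genes was not tested.

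Of 43 other interferon-stimulated genes 26 had no read and 2 were tested. Lgals3bp, a secreted galectin ligand, was called lower, without overlap, at 7.31 ± 5.29 CPM in cold and 24.3 ± 12.6 CPM in control libraries (SD, n = 3 each; -1.67 ± 0.50, edgeR adjusted p = 0.0268, range 0.000195 to 0.336 over 16 alternatives). That call was lost without any 1 library other than cold replicate 4. As in Ifi27l2a and B2m, the cold libraries stood in the reverse order of their muscle sums, whose part was not tested. Irf3, a transcription factor of the response, was not called (0.63 ± 0.35). Genes such as Ifit1, Oas1a, Mx1, Irf7 and Usp18 were at 0. In the other complement list 2 of 17 were tested and 0 called by edgeR, with 1 at an unadjusted p under 0.05: Cfd, or adipsin, which adipocytes secrete (0.53 ± 0.20, edgeR adjusted p = 0.0618). Fcgrt, the neonatal Fc receptor, was the 1 tested gene of the Fc list and was not called (-0.06 ± 0.19).

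**Figure D5:**
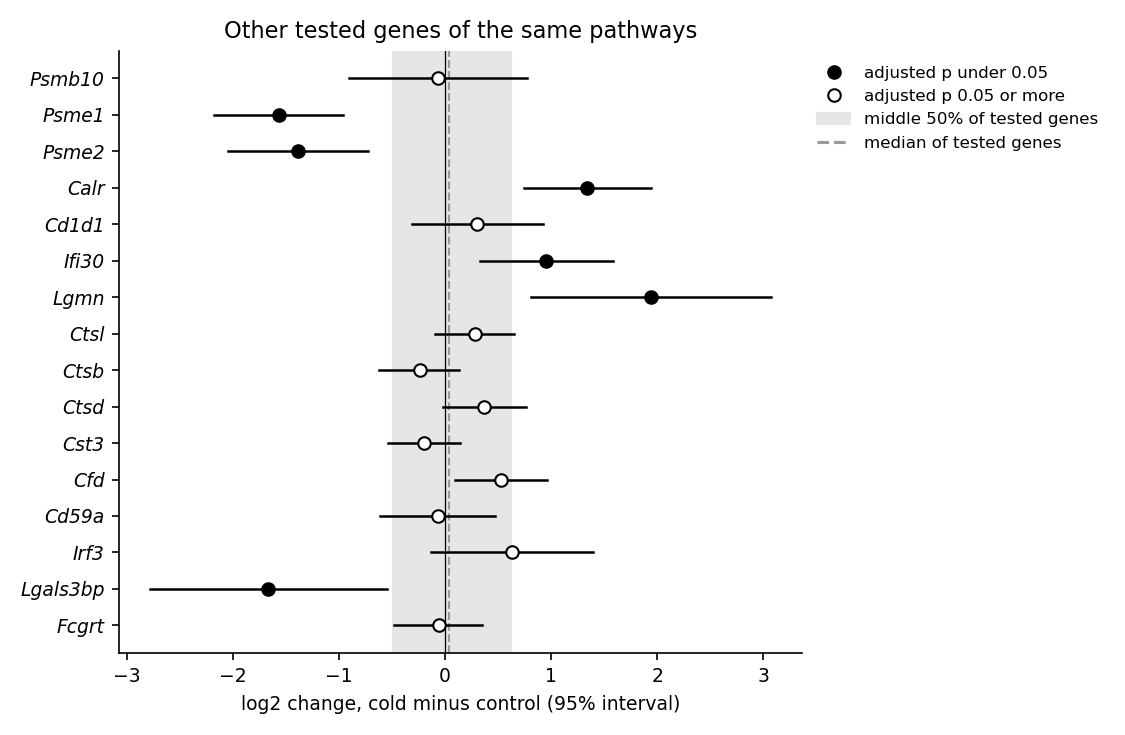
Log2 change, cold minus control, with 95% intervals for the 16 tested genes of the other pathway lists; filled points had an adjusted p under 0.05, and the grey band spans the middle 50% of all tested genes. Psme1, Psme2 and Lgals3bp are filled on the lower side and Calr, Ifi30 and Lgmn on the higher side.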

How the data were processed

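The 6 libraries were sequenced on 2 flow cells each. The deposited values are raw read counts per Ensembl transcript, made by the authors with no normalisation; per the submitters' processing notes minimap2 and GRCm38 were used, with no version of minimap2. The assignment of reads that fit several transcripts is not given in these sources. Transcripts not listed were taken as 0. Of 14693 identifiers 14671 matched GENCODE M21 without their version. The other 22 were left out; their share was 0.00433% of reads or less in any library. Counts were summed over flow cells and, for genes, over transcripts. The labels' extraction text names a white fat depot (eWAT), the tissue tag brown fat; the tag was followed.

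The edgeR test (version 4.0.16, R 4.3.3) was run on genes and on transcripts: filterByExpr at a minimum count of 10, TMM, robust quasi-likelihood fit, Benjamini-Hochberg adjustment over all features, called at an adjusted p under 0.05. The F statistic gave the SE, as the size of the change over its root, and intervals are at 95%. DESeq2 1.42.0 was an alternative. On simulated counts the gene test recovered 98.9% of changes of 2 and 35.4% of changes of 1 on the log2 scale. There 91 and 96 of 2001 genes were changed by these sizes, a smaller share than the 33.2% called in the data. The rates may therefore differ in the data. Copies were sought with blastn 2.17.0 (95% identity over 80% of length). Flow cells of a library differed in at most 0.106% of transcripts, libraries of a group in 11.9 to 26.8% (exact binomial test), so each library was counted as its own sample. All members are named; of the other lists, called genes. Promoter motifs are shortened forms, set after a search with longer ones (10 and 11 letters) that found the same member genes. Members and lists were chosen with earlier results of these data known, and the examples that were not called were picked after their values were seen.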

Additional observations from a re-analysis of the deposited data

How the results depend on the processing

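No paired analysis was possible because the cold and control mice share no replicate number. The 13 tested members were refitted under 15 alternatives and 1 more chosen after seeing the data, and 179 of 204 values kept their direction and side of the threshold. Calls of members as lower numbered 3 in the main test, 5 with DESeq2 and 5 with DESeq2 size factors in edgeR, where H2-K1 and Ifitm2 were added, and 2 to 7 when 1 library was left out. The 7 came without control replicate 14, where Cd74 (-2.84), H2-Ab1 (-3.17), Bst2 (-1.80) and Ifitm2 (-1.03) were called as well. Cd74 was also called lower with no count filter (-2.42, edgeR adjusted p = 0.0013). Members called higher were 1 in the main test and 2 with library totals alone, and 1 in each fit without 1 library. Member transcripts called were 5, and 3 to 7 without 1 library, 3 of them without cold replicate 11 or control replicate 9. Calls over all genes were 695, 498 to 687 without 1 library, and 321 without cold replicates 11 and 15, where 1 member was called lower (Cd74, at 0 reads in the remaining cold library). Changed transcript usage of members was 0 throughout. The same alternatives were run for the 6 called pathway genes and H2-Q10 after seeing the data, and none changed direction in them.

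Direction turned only in members that were never called. Ifitm3 was at 0.19 at equal depth, 0.07 without cold replicate 11, 0.38 without control replicate 2, against -0.50 without control replicate 14, and 0.14 without cold replicates 11 and 15. C1qa was at -0.23 without cold replicate 15, 0.45 without cold replicate 11 and -0.11 without both. Ly6a was at -0.16 without cold replicate 15, 0.36 without cold replicate 11 and -0.02 without control replicate 14. Ly6c1 was at -0.04 without cold replicate 15 and without both, and at 0.48 without control replicate 2. The cause of these shifts was not tested. The median over the genes of the main test moved by 0.12 with no count filter, by 0.07 with library totals alone and by -0.05 with DESeq2 size factors. Depth limits 19 of the 32 members, which were not tested.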
